A study of Mus musculus with 6 samples.

Results

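Fatty acid beta-oxidation was followed through 33 genes of mouse epididymal white adipose tissue, the fat pad beside the epididymis, after a day in the cold. The 33 were taken by gene symbol from the GENCODE M21 annotation, out of 23492 genes with reads, and they hold 145 of the 61729 transcripts that were read. They comprise 24 genes of the mitochondrial pathway, 7 of the peroxisomal pathway, Eci2, whose product is found in both organelles, and the cytosolic thioesterase Acot1. Animals of the cold group were single-housed at 4 °C for 24 h (mice 7, 12 and 16), and the ctrl group is labelled as control (mice 5, 6 and 10). All 6 were wild-type C57BL/6N males aged 20 weeks from a colony kept at 22 to 24 °C. The labels do not say whether ctrl mice also lived alone. Poly-A RNA of the whole tissue was read by Nanopore direct cDNA sequencing, which reads cDNA molecules without PCR, and the authors deposited whole-number read counts per annotated transcript.

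Beta-oxidation shortens fatty acids by repeating a cycle of dehydrogenation, hydration, a further dehydrogenation and thiolysis, each turn releasing acetyl-CoA. Long chains enter mitochondria through the carnitine shuttle, whereas peroxisomes begin the breakdown of very long and branched chains with oxidases in place of dehydrogenases. In white fat, cold exposure is known to trigger the release of stored fatty acids, most of which are burned in other tissues.

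Total reads per mouse were 726283 to 1341592, and values are given as CPM, the count of a gene scaled by the reads assigned to genes in its library. All 10 mature adipocyte markers had reads, at a summed 50160 to 53780 CPM in cold and 48980 to 53910 CPM in ctrl. Of 9 brown and beige fat markers 7 had reads, summing to 52.4 to 90.7 CPM in cold and 40.5 to 61.2 CPM in ctrl. Most of these were of Cox8b and Cox7a1, neither of which was called; Ucp1 had 1 read in cold and 1 in ctrl, and Zic1 and Lhx8 were at 0. Cold 16 stood apart in the kind of transcript read: 86.9% of its reads fell on protein_coding transcripts, against 89.3% to 89.7% in the other 5 mice. Results without it are given for the level of Hibch and for the split of Hibch, Acaa2 and Hadhb reads among transcripts. They are also given for the called transcript of Acot1, but not for every result in which cold 16 was the most extreme mouse.

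At the gene level the pathway gave 1 call. Of the 33 genes, 32 had enough reads for the test, and Acot1 alone passed the threshold, higher in cold (edgeR quasi-likelihood F test, adjusted p under 0.05 over all 9772 genes tested). Among all genes tested, 0.553% were called, 0.43% as higher and 0.123% as lower in cold. The other 31 members did not pass, and none was called lower. DESeq2 and limma-voom also called Acot1 and no other member. Their log2 fold changes, cold over ctrl, lay between -0.27 and 0.36. The median over the 32 was 0.02, beside 0.01 over all genes tested. The 95% interval of the fold change lay within 2-fold of no difference in 31 members and within 1.5-fold in 28. Over all genes tested those shares were 81.6% and 34.2%. Members had more reads than most genes, with a median of 731 reads over the 6 mice beside 197.5 over all tested, so their intervals are narrower. In bulk tissue, fewer cells of a type and less RNA per cell cannot be told apart.

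**Figure D1:**
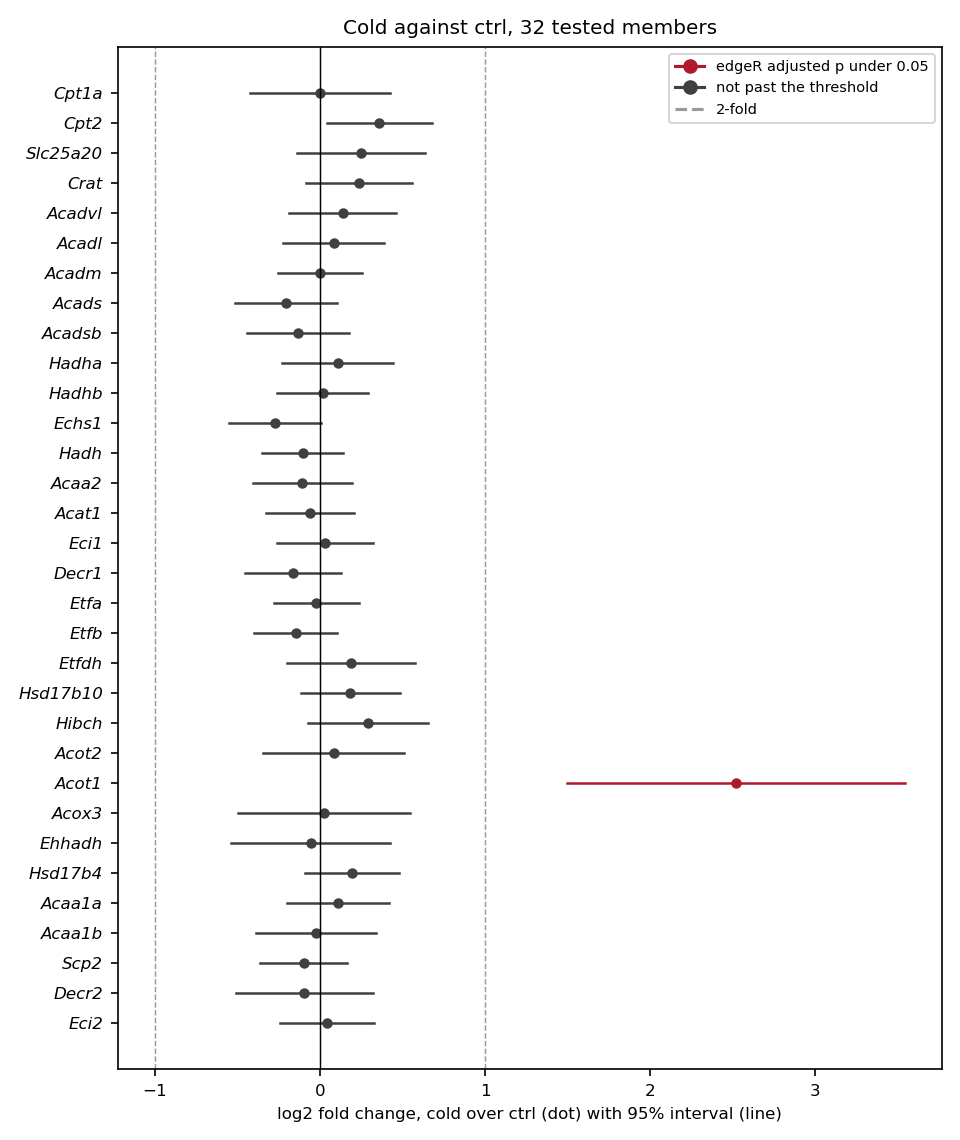
Log2 fold change of the 32 tested members, cold over ctrl (dots), with 95% intervals (lines), ordered by role from the carnitine shuttle at the top to the peroxisomal genes and Eci2 at the bottom. Acot1 is the 1 member past the threshold, and 31 intervals lie inside the dashed 2-fold lines.

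Acot1 (ENSMUSG00000072949.6, chromosome 12, 84009490 to 84018371, GRCm38), which cleaves long-chain acyl-CoA to free fatty acid and CoA in the cytosol, was read rarely. It had 11.03, 21.8 and 16.6 CPM in cold 7, 12 and 16, from 8, 26 and 13 reads. In ctrl 5, 6 and 10 it had 6.399, 2.24 and 0.8825 CPM, from 6, 3 and 1 reads. The groups did not overlap, and ctrl 5 came closest to the cold mice. Acot1 passed the read filter of the test through the cold mice alone. At the ctrl level of Acot1, a gene enters the test only if it is higher in cold. The call and the lack of overlap are thus not independent of this filter. The means were 16.5 ± 5.39 CPM in cold and 3.17 ± 2.87 CPM in ctrl (SD, n = 3 each). The log2 fold change was 2.52 ± 0.50 (SE; edgeR adjusted p = 0.0102), a fitted fold of 2.82 to 11.7 by its 95% interval. The call ended without cold 12 (edgeR adjusted p = 0.302), without ctrl 6 (0.0962) and without ctrl 10 (0.0997), with log2 fold changes of 2.21, 2.31 and 2.09. With a filter of at least 10 reads in at least 3 mice Acot1 was not tested, nor was it with either file of a mouse alone.

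Reads of Acot1 could in part match its neighbour Acot2 (ENSMUSG00000021226.7, chromosome 12, 83987861 to 83993873), which encodes the mitochondrial thioesterase of the same family and lies 15616 bases away on the same strand. Over 1230 aligned coding columns the transcripts Acot1-201 and Acot2-201 are 95.6% identical, with 54 mismatches, and the longest run without a difference spans 273 bases. The alignment covers bases 27 to 1363 of the 2272 of Acot1-201 and 171 to 1500 of the 2196 of Acot2-201, so the 3′ parts of the transcripts lie outside it. A stretch of 60 coding bases shows how the copies differ where they differ, with the 13 mismatched bases in capitals (GENCODE M21, GRCm38, plus strand, chr12:84016942-84017001 for Acot1 and chr12:83992664-83992723 for Acot2).
Acot1: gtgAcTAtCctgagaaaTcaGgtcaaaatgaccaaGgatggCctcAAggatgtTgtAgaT
Acot2: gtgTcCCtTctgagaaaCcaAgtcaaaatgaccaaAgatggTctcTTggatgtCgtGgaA
How the authors assigned reads that match both copies is not given in the sources used here, and whether any were exchanged was not tested. Acot2 had 103, 82.2 and 54.9 CPM in cold 7, 12 and 16, against 78.9, 91.1 and 60.01 CPM in ctrl 5, 6 and 10. Its groups overlapped (log2 fold change 0.08 ± 0.21 SE, edgeR adjusted p = 0.964). Counted as 1 gene, Acot1 and Acot2 together had a log2 fold change of 0.30 ± 0.19 (SE) and an edgeR adjusted p of 0.748. Acot2 had 216 reads in cold and 264 in ctrl, beside 47 and 10 of Acot1. The sum therefore follows Acot2 and cannot show whether reads were exchanged.

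Another set of genes was also higher in the cold mice. The sum of 10 epithelial marker genes, Epcam, Krt8 and Krt18 among them, was 159.9, 263.3 and 218.4 CPM in cold 7, 12 and 16, against 68.3, 26.1 and 45.9 CPM in ctrl 5, 6 and 10. All 10 had reads, 6 were tested, and 5 of these were called higher in cold. Among the called, Epcam, Krt8, Krt18 and Cldn7 passed the read filter through the cold mice alone, and Spint2 through both groups. A gene as low in ctrl as the former is tested only if it is higher in cold. Krt19, tested and not called, overlapped between groups (edgeR adjusted p = 0.644). Cold 12 held the highest sum and the highest Acot1, and cold 7 the lowest of the cold mice for both. In ctrl, mouse 5 was the highest for both, and mice 6 and 10 stood in opposite order. The part of epithelial cells in the Acot1 result was not tested. Of 13 listed PPAR target genes of fatty acid use 7 could be tested, and 0 of these were called by edgeR, DESeq2 or limma-voom. An unadjusted edgeR p under 0.05 was reached by 1 of the 7, beside 8.48% of all genes tested. The part of PPAR activity in the Acot1 result was not tested.

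**Figure D2:**
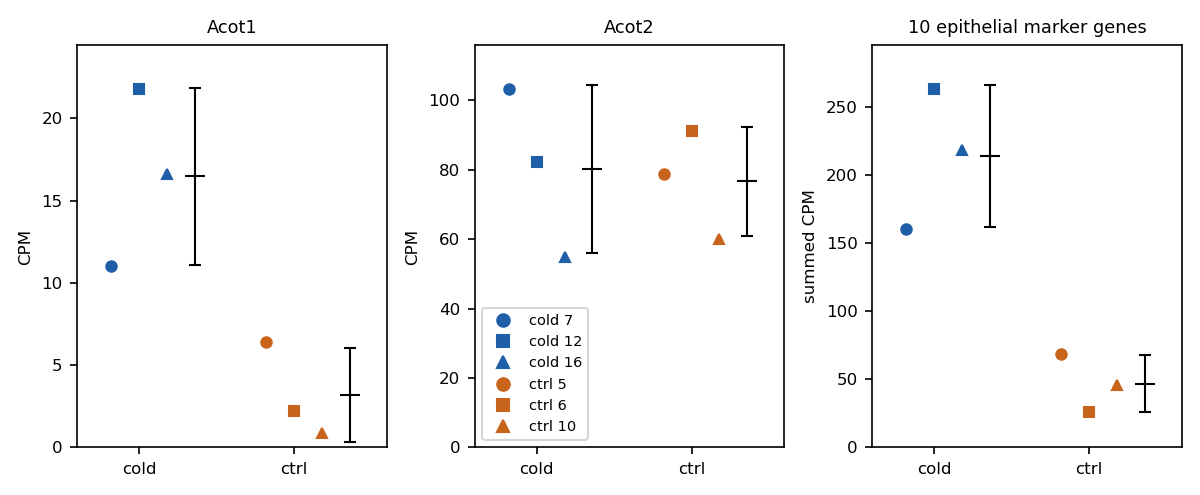
CPM of Acot1 (left), CPM of its neighbour Acot2 (middle) and summed CPM of 10 epithelial marker genes (right) in each of the 3 cold and 3 ctrl mice. Black bars are mean ± SD, and each y axis starts at 0. Acot1 and the epithelial sum are higher in every cold mouse than in any ctrl mouse, and Acot2 overlaps.

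The start regions of both thioesterases are shown because the copies are alike in coding sequence and 1 of them was called. Each run is the 250 bases before the RefSeq gene start (GRCm38.p6, plus strand, chr12:84009252-84009501 and chr12:83987611-83987860), with matches on either strand to CCAAT boxes, to GC boxes (GGGCGG) and to the letters TGACG in capitals.
Acot1: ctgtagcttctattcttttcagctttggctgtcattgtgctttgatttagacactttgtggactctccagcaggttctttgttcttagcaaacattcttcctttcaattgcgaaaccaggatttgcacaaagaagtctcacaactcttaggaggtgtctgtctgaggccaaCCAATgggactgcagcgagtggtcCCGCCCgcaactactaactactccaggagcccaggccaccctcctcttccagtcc
Acot2: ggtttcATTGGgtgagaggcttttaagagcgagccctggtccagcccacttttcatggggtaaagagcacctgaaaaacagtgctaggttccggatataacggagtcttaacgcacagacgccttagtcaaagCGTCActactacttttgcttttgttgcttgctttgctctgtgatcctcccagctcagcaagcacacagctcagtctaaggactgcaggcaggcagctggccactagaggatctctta
Acot1 holds a CCAAT box and a GC box (GGGCGG), 79 and 55 bases before its start. Acot2 holds a CCAAT box 244 bases and a TGACG 117 bases before its start. Promoter sequences were used for 27 of the 33 members, and both strands of these 250 bases were searched. GGGCGG stood in 20 of the 27 (74.1%), beside 32.7% of all 32851 promoters searched, and CCAAT in 12 (44.4%, beside 33.85%). TGACG stood in 8 (29.6%, beside 17.8%) and AGGTCA, the nuclear receptor motif, in 5 (18.5%, beside 14.02%). None of the 27 held TATAAA, which 12.4% of all promoters hold, or a direct repeat of AGGTCA with 1 base between the copies, which 0.0335% hold. No comparison was limited to promoters of genes with reads in these mice, so these shares do not set the members apart from other expressed genes. A match describes the letters of this window only.

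The genes of the carnitine shuttle move long chains into mitochondria, and none of the 4 tested was called. Cpt2, the inner-membrane carnitine palmitoyltransferase, had 106, 119 and 95.8 CPM in cold 7, 12 and 16, against 85.3, 80.6 and 90.9 CPM in ctrl 5, 6 and 10. Its groups did not overlap, and its log2 fold change was 0.36 ± 0.15 (SE; edgeR adjusted p = 0.512). Slc25a20, the carnitine-acylcarnitine translocase, had 85.5, 77.2 and 65.2 CPM in cold 7, 12 and 16, against 60.8, 80.6 and 52.1 CPM in ctrl 5, 6 and 10. Crat, the carnitine acetyltransferase that handles acetyl and other short acyl groups, had 120.0, 121.6 and 90.7 CPM in cold 7, 12 and 16, against 103.5, 91.1 and 95.3 CPM in ctrl 5, 6 and 10. Both overlapped, with edgeR adjusted p of 0.826 for Slc25a20 and 0.779 for Crat. Cpt1a, the outer-membrane transferase and the main control point of the shuttle in liver, averaged 56.1 ± 10.9 CPM in cold and 57.4 ± 14.7 CPM in ctrl (SD, n = 3 each), a log2 fold change of 0.00 ± 0.21 (SE). Cpt1b, the isoform typical of muscle and brown fat, had 1 read in cold and 4 in ctrl and was not tested. It shares 2744 exon bases with Gm44502 on the same strand, so even these reads are uncertain. It was at 0 reads in cold 7, cold 12 and ctrl 5, where a count of 0 allows up to 3 reads, or 4.14, 2.52 and 3.20 CPM; these limits cover counting error only.

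The first step of the mitochondrial cycle is taken by acyl-CoA dehydrogenases of different chain length, and 0 of 5 were called. Acads, which acts on short chains, had 81.4, 93.1 and 93.3 CPM in cold 7, 12 and 16, against 106.7, 110.5 and 98.0 CPM in ctrl 5, 6 and 10. These groups did not overlap, but the log2 fold change of -0.21 ± 0.15 (SE) did not pass (edgeR adjusted p = 0.818), and the log2 fold change was 0.05 from the X2 file of each mouse alone, 1 of the 2 count files that were summed (edgeR adjusted p = 0.988). Acadm, Acadl and Acadvl, for medium, long and very long chains, averaged 329 ± 16.1, 194.9 ± 38.0 and 95.5 ± 10.8 CPM in cold. In ctrl these averaged 335.5 ± 23.8, 187.5 ± 15.6 and 88.8 ± 7.58 CPM (SD, n = 3 each). Acadsb, for short branched chains from isoleucine, averaged 96.3 ± 11.3 CPM in cold and 108.4 ± 3.96 CPM in ctrl. All 4 overlapped between groups. Reads of Acadvl may be shared with Dvl2, whose exons cover 1151 of its exon bases on the opposite strand.

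The later steps for long chains are joined in the trifunctional protein, whose alpha and beta subunits come from Hadha and Hadhb. These genes are read in opposite directions from starts 273 bases apart (RefSeq, GRCm38.p6, chromosome 5). Hadha averaged 93.0 ± 12.3 CPM in cold and 86.5 ± 7.98 CPM in ctrl, and Hadhb 163.6 ± 7.02 CPM in cold and 164.9 ± 8.96 CPM in ctrl (SD, n = 3 each). Neither was called (edgeR adjusted p of 0.932 and 0.989).

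The 4 genes that carry out the later steps for shorter chains all had fitted log2 fold changes below 0, with a median of -0.11, and none was called. Echs1, the short-chain enoyl-CoA hydratase, had 235.8, 238.2 and 183.9 CPM in cold 7, 12 and 16, against 275.2, 283.0 and 252.4 CPM in ctrl 5, 6 and 10. Its groups did not overlap (log2 fold change -0.27 ± 0.14 SE, edgeR adjusted p = 0.614). Hadh, the short-chain hydroxyacyl-CoA dehydrogenase, had 517, 566 and 522.5 CPM in cold 7, 12 and 16, against 582, 629 and 547 CPM in ctrl 5, 6 and 10. The thiolases Acaa2 and Acat1 overlapped between groups as well, at 136.1 ± 13.3 and 209.5 ± 8.40 CPM in cold and 149.0 ± 19.1 and 223.4 ± 19.1 CPM in ctrl (SD, n = 3 each). Echs1 shares 142 exon bases with Paox on the opposite strand.

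Electron transfer flavoprotein takes the electrons of the first step, and its subunit genes were among the most read members. Etfa had 499, 512 and 404 CPM in cold 7, 12 and 16, against 497, 485 and 484.5 CPM in ctrl 5, 6 and 10, with cold 16 the lowest mouse. Etfb had 296.4, 312.8 and 306.6 CPM in cold 7, 12 and 16, against 364.7, 322.5 and 347.7 CPM in ctrl 5, 6 and 10. Its groups did not overlap, at a log2 fold change of -0.15 ± 0.12 (SE; edgeR adjusted p = 0.848), and 617 of its exon bases also belong to Gm45233 on the same strand. Etfdh, which passes the electrons on to ubiquinone, averaged 68.1 ± 14.4 CPM in cold and 59.9 ± 2.44 CPM in ctrl. Decr1 and Eci1, the mitochondrial enzymes that prepare unsaturated chains, averaged 140.1 ± 18.6 and 160.3 ± 19.1 CPM in cold, against 161.1 ± 6.50 and 160.0 ± 9.04 CPM in ctrl.

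Hibch and Hsd17b10 serve branched-chain amino acid breakdown, Hibch in the valine pathway and Hsd17b10 in that of isoleucine. Hibch had 133.7, 127.5 and 79.2 CPM in cold 7, 12 and 16, against 89.6, 107.5 and 86.5 CPM in ctrl 5, 6 and 10. Cold 16 lay below every ctrl mouse and the other cold mice above them (log2 fold change 0.29 ± 0.18 SE, edgeR adjusted p = 0.741). Without cold 16 the edgeR adjusted p of Hibch was 0.228, which also misses the threshold. Hsd17b10 averaged 171.5 ± 31.9 CPM in cold and 154.9 ± 1.22 CPM in ctrl (SD, n = 3 each), and cold 16 was again the lowest mouse, at 139.2 CPM.

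Counted without a model, 5 of the 32 tested members (15.6%) did not overlap between groups, Acot1 and Cpt2 higher in cold and Echs1, Acads and Etfb lower. Over all genes tested 13.7% did not overlap, a similar share. Exon bases shared with another gene that had at least 10 reads were annotated in 9 of the 33. An unadjusted edgeR p under 0.05 was reached by 2 members, Acot1 and Cpt2, beside 8.48% of all genes.

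**Figure D3:**
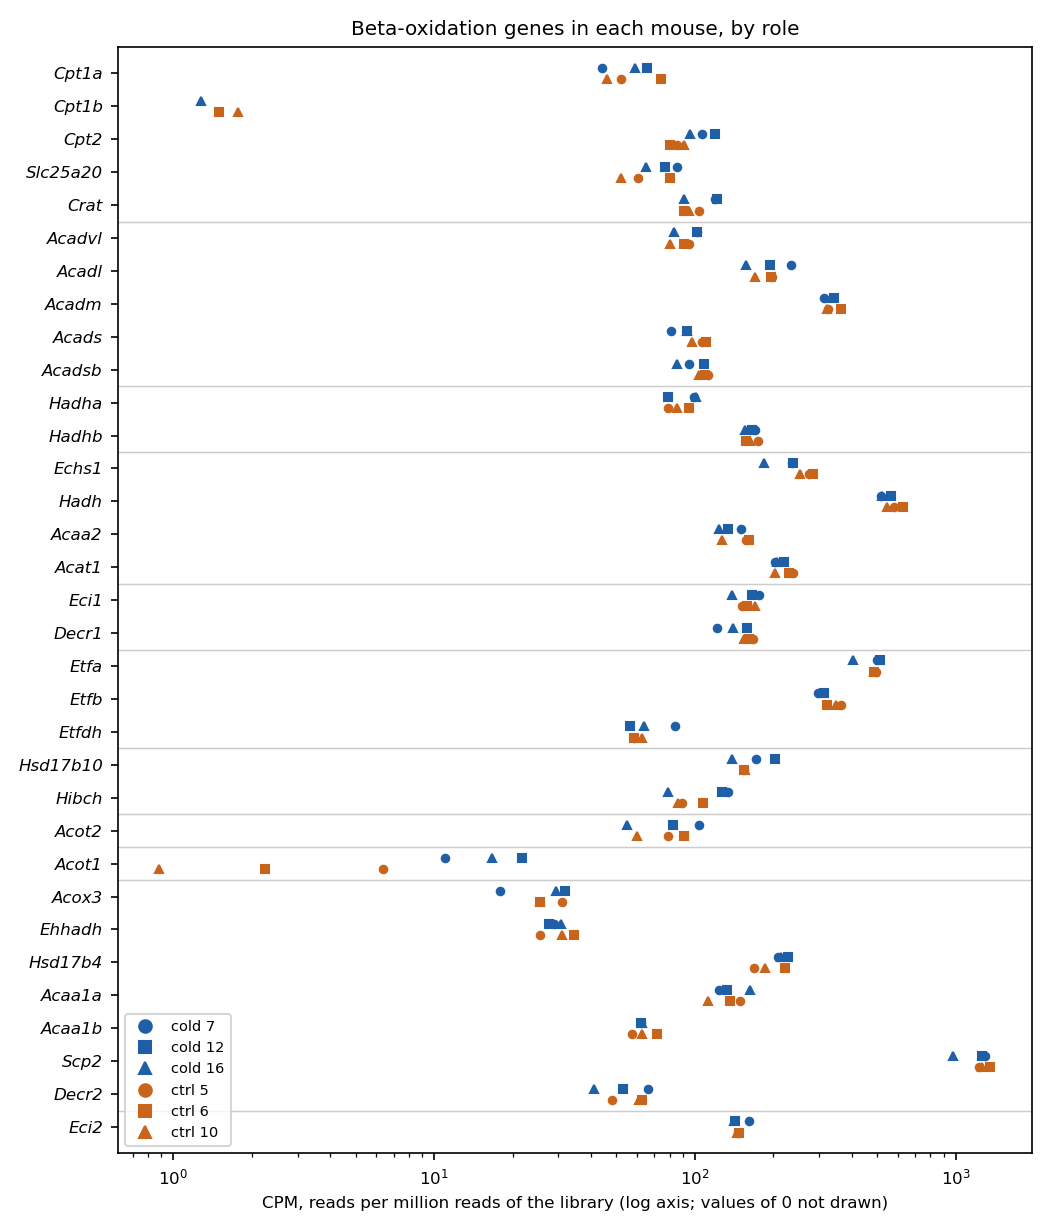
CPM of each of the 33 members in every mouse on a log axis, grouped by role with grey lines; cold mice are blue and sit above the ctrl mice in orange. In most members both groups are intermixed, Scp2 is the highest, and Acot1 is the member whose groups are widest apart.

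Of the 7 peroxisomal members none was called by edgeR, DESeq2 or limma-voom or had an unadjusted edgeR p under 0.05. The log2 fold change was above 0 in 3 and below in 4, with a median of -0.03, and the 95% interval lay within 1.5-fold in all 7. Of the 23 tested mitochondrial members none was called by these tools and Cpt2 alone had an unadjusted p under 0.05; 12 lay above 0 and 11 below, with a median of 0.02. Scp2, whose locus makes sterol carrier protein x, a peroxisomal thiolase, and sterol carrier protein 2, was the most read member. It had 1295, 1263 and 977 CPM in cold 7, 12 and 16, against 1233, 1360 and 1268 CPM in ctrl 5, 6 and 10, with cold 16 lowest (edgeR adjusted p = 0.924). Hsd17b4, the D-bifunctional protein that hydrates and dehydrogenates in peroxisomes, had 208.2, 228.1 and 213.3 CPM in cold 7, 12 and 16, against 168.5, 221.7 and 186.2 CPM in ctrl 5, 6 and 10. Its log2 fold change of 0.19 ± 0.14 (SE) was the highest of the 7 (edgeR adjusted p = 0.802).

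The peroxisomal thiolase genes Acaa1a and Acaa1b, near-identical copies on chromosome 9 whose reads may be exchanged, overlapped between groups. Acaa1a had 124.1, 133.3 and 162.2 CPM in cold 7, 12 and 16, against 149.3, 135.9 and 112.1 CPM in ctrl 5, 6 and 10. Acaa1b had 62.1, 62.1 and 62.6 CPM in cold 7, 12 and 16, against 57.6, 71.7 and 62.7 CPM in ctrl 5, 6 and 10. Decr2, the peroxisomal dienoyl-CoA reductase, had 66.2, 52.8 and 40.9 CPM in cold 7, 12 and 16, against 48.0, 62.7 and 60.9 CPM in ctrl 5, 6 and 10.

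The lowest peroxisomal members were an oxidase and the L-bifunctional enzyme. Acox3, an oxidase for branched chains, had 17.9, 31.9 and 29.4 CPM in cold 7, 12 and 16, against 30.9, 25.4 and 25.6 CPM in ctrl 5, 6 and 10. Ehhadh had 28.95, 27.7 and 30.7 CPM in cold 7, 12 and 16, against 25.6, 34.3 and 30.9 CPM in ctrl 5, 6 and 10. Eci2, the isomerase shared by both organelles, averaged 148.6 ± 11.1 CPM in cold and 146.3 ± 0.746 CPM in ctrl (SD, n = 3 each).

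Summed over members, the mitochondrial genes held 4141, 4242 and 3685 CPM in cold 7, 12 and 16, against 4206, 4292 and 3956 CPM in ctrl 5, 6 and 10. The peroxisomal genes held 1802, 1799 and 1516 CPM in cold 7, 12 and 16, against 1713, 1911 and 1747 CPM in ctrl 5, 6 and 10. Cold 16 was the lowest mouse in both sums. The peroxisomal share of the reads of both sets was 29.8% ± 0.588 in cold and 30.1% ± 1.03 in ctrl (SD, n = 3 each), and the groups overlapped. Most peroxisomal reads were of Scp2, and without it the share was 11.6% ± 0.990 in cold and 10.8% ± 0.576 in ctrl. All 33 members together took 0.612%, 0.621% and 0.536% of the reads of cold 7, 12 and 16, against 0.607%, 0.635% and 0.585% in ctrl 5, 6 and 10.

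**Figure D4:**
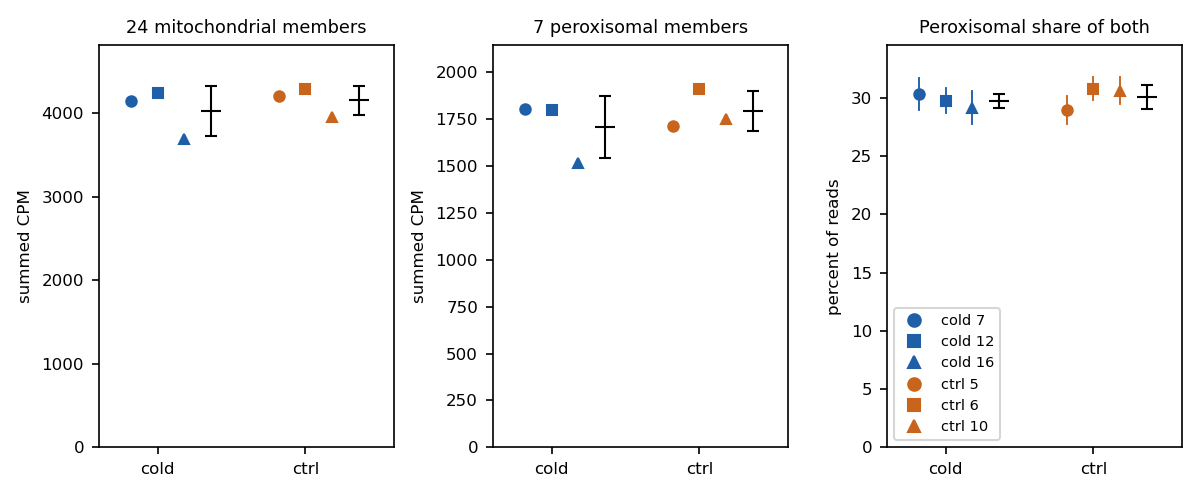
Summed CPM of the mitochondrial members (left) and of the peroxisomal members (middle), and the peroxisomal share of the reads of both in percent (right), for each mouse. Thin coloured lines at right are 95% Clopper-Pearson intervals, black bars are mean ± SD, and each axis starts at 0; cold and ctrl mice overlap in all 3 panels.

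Divided by the kilobases of the most read transcript, the mean level over the 6 mice was highest for Scp2, at 467 CPM per kilobase. Etfb, Etfa and Hadh followed at 364, 345 and 313 CPM per kilobase. The lowest tested members were Acot1, Acox3, Ehhadh and Cpt1a, at 4.32, 6.75, 9.96 and 13.1 CPM per kilobase. The shuttle genes Cpt1a, Crat, Slc25a20 and Cpt2 lay at 13.1 to 40.6 CPM per kilobase, a range that also held Acadsb and Hadha, among others, at 16.8 and 22.3. Whether direct cDNA counts scale with transcript length was not tested, and the order by undivided CPM differs.

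Long reads also show which transcript of a gene was read. In 16 members at least 90% of reads fell on 1 transcript, and in 14 of the members with at least 60 reads, at least 2 transcripts each took 10% or more. Of 57 member transcripts tested, Acot1-201, the 3-exon coding form, was the 1 called (log2 fold change 2.72 ± 0.56 SE, edgeR adjusted p = 0.0203), beside 0.349% of all 12325 transcripts. It carried 8, 19 and 11 of the Acot1 reads in cold 7, 12 and 16, and 4, 2 and 1 in ctrl 5, 6 and 10. Like the gene, it passed the read filter through the cold mice alone. Its call ended without cold 12 (edgeR adjusted p = 0.439), cold 16 (0.0530), ctrl 6 (0.182) or ctrl 10 (0.154), and with DESeq2 (adjusted p = 0.0763). Unadjusted, 6 of the 57 had an edgeR p under 0.05, beside 6.95% of all transcripts. How a gene's reads divide among its transcripts (usage) could be tested in 18 members. None was called by diffSpliceDGE of edgeR, beside 0.0% of 2624 genes, and none by limma diffSplice. At an unadjusted p under 0.05, 1 member passed by diffSpliceDGE (0.953% of all genes) and 3 by limma (3.66%). Shares that did not overlap between groups were found for 9 of 43 member transcripts (20.9%), beside 9.78% of all 6533 compared. They belong to Acaa2, Crat, Etfdh, Hadhb and Hibch, and shares of transcripts of 1 gene are not independent.

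The shares of Hadhb transcripts separated the groups with all cold mice close together. Its transcripts differ where exon 1 ends. Hadhb-203 continues for 43 bases beyond the exon 1 end of Hadhb-201, and Hadhb-202 for 4 bases more. Translation starts in exon 2, and all 3 have the same 1425 coding bases, so the difference lies in the 5′ untranslated part. The 3 junctions follow, with the last 15 bases of exon 1 in capitals and the start of exon 2 in lower case (GENCODE M21, GRCm38, chromosome 5, plus strand).
Hadhb-201: TTCGCGGACTCTAAGatttcagaatgacta
Hadhb-203: CTGATTTCCCCACAGatttcagaatgacta
Hadhb-202: TTTCCCCACAGGCAGatttcagaatgacta
Hadhb-201 took 46.3%, 51.3% and 44.3% of Hadhb reads in cold 7, 12 and 16, against 57.3%, 61.6% and 58.7% in ctrl 5, 6 and 10. Hadhb-203 took 44.7%, 42.1% and 46.7% in cold 7, 12 and 16, against 39.6%, 32.7% and 35.3% in ctrl 5, 6 and 10. Hadhb-202 took 7.32%, 6.09% and 8.197% in cold 7, 12 and 16, against 3.05%, 4.26% and 3.80% in ctrl 5, 6 and 10. The form with the shortest exon 1 was thus lower in every cold mouse and both longer forms higher, while the gene totals overlapped. Each share is taken over 122 to 211 reads of the gene. Hadhb-202 itself had 52 reads over the 6 mice, so its shares rest on few reads. For Hadhb-201 the 95% Clopper-Pearson intervals of cold and ctrl mice overlapped in each pair of mice except cold 16 (35.3% to 53.5%) and ctrl 6 (54.7% to 68.2%). The usage test did not pass (edgeR diffSpliceDGE unadjusted p of 0.118, adjusted p of 0.9999). By limma diffSplice the unadjusted usage p was 0.0047 and the adjusted p 0.942. Cold 16 was the lowest mouse for the Hadhb-201 share and the highest for both longer forms. Without cold 16 the unadjusted diffSpliceDGE p was 0.214, and Hadhb-201 averaged 48.8% in cold 7 and cold 12. None of the 3 transcripts passed alone (edgeR adjusted p of 0.809, 0.814 and 0.695).

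Hibch-202 joins exon 11 of Hibch-201 to its last exon, leaving out 154 bases, and is annotated with 311 codons, against 385. The bases after the shared end of exon 11 are in capitals (GENCODE M21, GRCm38, chromosome 1, plus strand).
Hibch-202: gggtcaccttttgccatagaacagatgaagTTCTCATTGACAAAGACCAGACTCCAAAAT
Hibch-201: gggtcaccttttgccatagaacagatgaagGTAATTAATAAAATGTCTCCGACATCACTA
Hibch-202 took 23.7%, 22.4% and 50% of Hibch reads in cold 7, 12 and 16, against 17.9%, 17.4% and 15.3% in ctrl 5, 6 and 10. The groups did not overlap, but cold 16 alone was far above the rest. Its interval in cold 16 was 37.0% to 63.0%, from 31 of 62 reads, and in cold 12 16.0% to 29.8%, from 34 of 152. As a transcript it had a log2 fold change of 1.05 ± 0.28 (SE; edgeR adjusted p = 0.126). The unadjusted usage p of edgeR diffSpliceDGE was 0.0630 (adjusted p of 0.9999), and without cold 16 it was 0.383 unadjusted. By limma diffSplice the unadjusted usage p was 0.0260 and the adjusted p 0.942.

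Acaa2 (chromosome 18, 74779197 to 74806208), the mitochondrial thiolase, had the smallest usage p of the members and the second smallest of all genes tested. Acaa2-202 is a form of 504 bases and 3 exons, all of whose bases also lie in the 1516-base Acaa2-201. It is annotated with 103 codons, against 397 in Acaa2-201. It took 16.5%, 15.6% and 34.0% of Acaa2 reads in cold 7, 12 and 16, from 18, 25 and 33 reads. In ctrl 5, 6 and 10 it took 7.43%, 10.1% and 6.94%, from 11, 22 and 10 reads. The groups did not overlap, and cold 16 was highest. The difference in usage did not pass after adjustment (edgeR diffSpliceDGE unadjusted p of 0.000663, adjusted p of 0.869; limma adjusted p of 0.942), and Acaa2-202 alone had a log2 fold change of 1.21 ± 0.33 (SE; edgeR adjusted p = 0.154). Without cold 16 the usage p was 0.0208, and the mean share in the other cold mice was 16.1%. Of the 2 introns of Acaa2-202, 1 is shared with Acaa2-201 and 1 is its own, so its exon junctions differ while every base is shared. Whether reads of incomplete cDNA were assigned between the forms was not tested.

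Cold 16 stood apart over the members as well. Of its member reads 91.0% were on protein_coding transcripts, against 93.6% to 94.4% in the other 5 mice. Retained-intron transcripts took 4.91% of its member reads, against 2.95% to 3.66% in the others, and processed transcripts 3.98%, against 2.41% to 2.72%. The coding sequence of each gene's most read transcript was carried by 85.7% of its member reads, against 89.8% to 90.4% in the others.

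**Figure D5:**
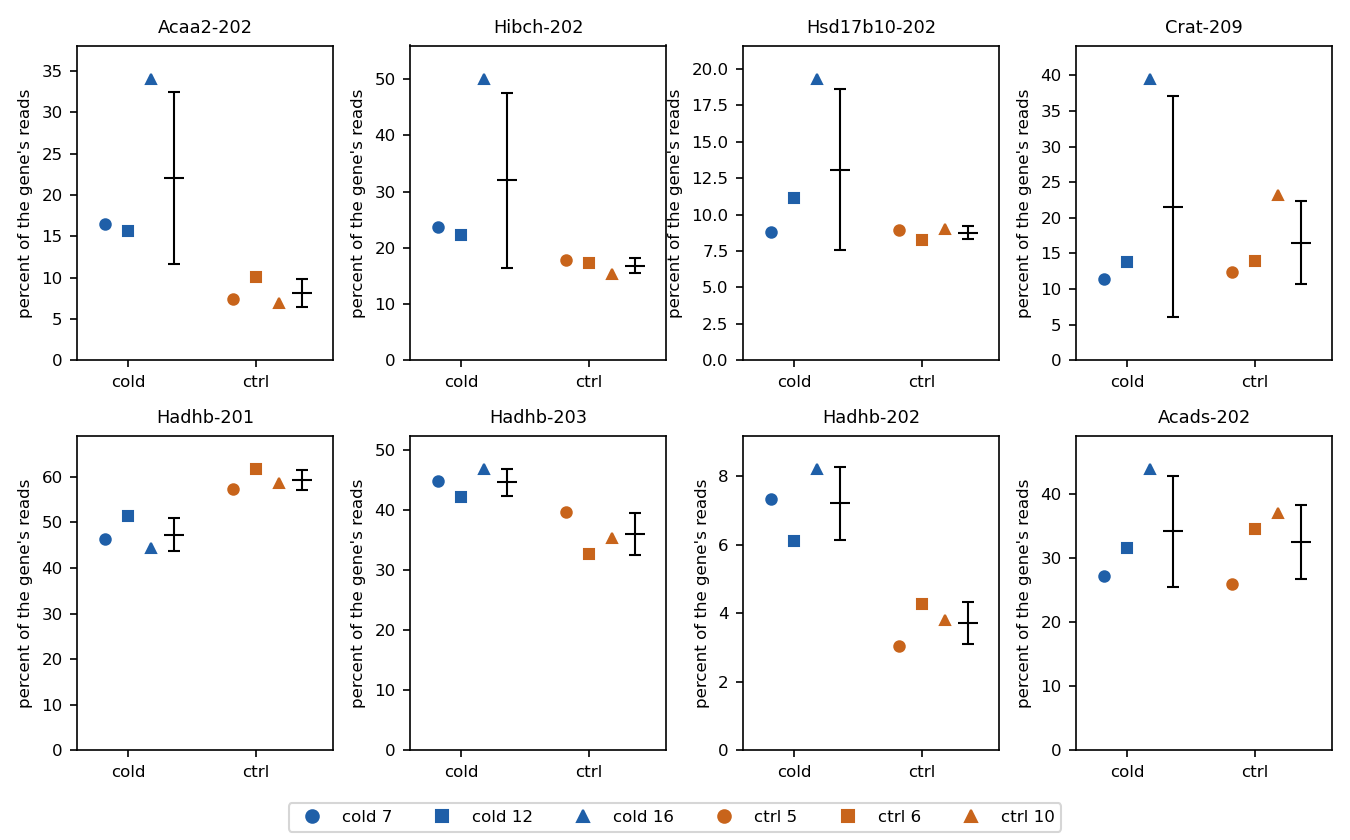
Percent of a gene's reads on each of 8 member transcripts in every mouse, cold at left and ctrl at right in each panel; black bars are mean ± SD and each axis starts at 0. The top row and Acads-202 show cold 16 as the highest mouse, whereas the 3 Hadhb transcripts separate the groups with the cold mice close together.

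Other members made more than 1 form without a difference that passed. Cpt2-201, the main form of Cpt2, had 88.1, 112.2 and 88.0 CPM in cold 7, 12 and 16, against 78.8, 69.3 and 80.2 CPM in ctrl 5, 6 and 10 (log2 fold change 0.38 ± 0.18 SE, edgeR adjusted p = 0.694). Crat was split between Crat-201 and Crat-203, which have the same 1878 coding bases; Crat-203 has an intron that Crat-201 lacks and extends 630 bases further at its 3′ end. Crat-201 took 39.1%, 40.0% and 28.2% of Crat reads in cold 7, 12 and 16, against 42.3%, 51.6% and 43.5% in ctrl 5, 6 and 10. Crat-203 took 43.7%, 41.4% and 32.4% in cold 7, 12 and 16, against 41.2%, 31.97% and 31.5% in ctrl 5, 6 and 10. The non-coding Crat-209 took 39.4% in cold 16, against 11.5% to 23.2% in the other 5 mice, so the low Crat-201 share of that mouse goes with a high Crat-209 share.

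Hsd17b10-202 carries 30 bases more than Hsd17b10-201 at the start of exon 4, in capitals here (GENCODE M21, GRCm38, chromosome X, plus strand).
Hsd17b10-202: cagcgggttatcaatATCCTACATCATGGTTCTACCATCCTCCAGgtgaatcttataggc
The insertion adds 10 codons, 271 against 261. Hsd17b10-202 took 8.80%, 11.2% and 19.3% of Hsd17b10 reads in cold 7, 12 and 16, against 8.97%, 8.25% and 9.04% in ctrl 5, 6 and 10 (edgeR adjusted p = 0.647). The processed transcript Hsd17b10-204 took 14.05% to 15.6% in cold and 12.4% to 20.4% in ctrl.

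Eci1 was read mostly as Eci1-205, which has 9 bases more than Eci1-201 at the start of exon 3, in capitals here (GENCODE M21, GRCm38, chromosome 17, plus strand).
Eci1-205: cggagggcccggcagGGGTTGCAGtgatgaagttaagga
It took 65.6%, 59.4% and 56.0% of Eci1 reads in cold 7, 12 and 16, against 65.5%, 65.3% and 62.0% in ctrl 5, 6 and 10 (usage p of Eci1 0.326). Eci1-201 took 14.1% to 24.4% in cold and 16.9% to 20.8% in ctrl, and Eci1-203 15.7% to 29.4% in cold and 13.4% to 16.4% in ctrl. Eci2 was read mostly as Eci2-211, at 70.1%, 62.9% and 74.8% in cold 7, 12 and 16, against 67.9%, 61.9% and 72.7% in ctrl 5, 6 and 10. Its other coding forms, Eci2-201 and Eci2-213, took 6.31% to 17.6% and 9.01% to 12.8% in cold, and 12.1% to 20.3% and 9.14% to 11.7% in ctrl. The shares of these Eci1 and Eci2 transcripts overlapped between groups.

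Etfdh-202, whose annotated coding part begins in exon 3 and has 556 codons against 616 in Etfdh-201, took 36.1%, 35.8% and 46.0% of Etfdh reads in cold 7, 12 and 16. In ctrl 5, 6 and 10 it took 34.55%, 30.8% and 30.99%. The groups did not overlap, by a narrow margin between cold 12 and ctrl 5 (edgeR adjusted p of the transcript 0.834). Decr2 had no dominant form: its most read transcript, Decr2-201, took 27.1%, 30.2% and 15.6% in cold 7, 12 and 16, against 15.6%, 22.6% and 28.99% in ctrl 5, 6 and 10. The other Decr2 transcripts above 10% were Decr2-203, annotated for nonsense-mediated decay, the processed Decr2-205, the coding Decr2-209 and the retained-intron Decr2-207, at 17.01%, 14.4%, 14.1% and 11.4% of its reads over the 6 mice.

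The remaining split members carried non-coding forms, mostly with a retained intron. Acads-202 took 27.1%, 31.5% and 43.8% of Acads reads in cold 7, 12 and 16, against 26.0%, 34.5% and 36.9% in ctrl 5, 6 and 10. Acaa1a-209 took 25.6%, 31.45% and 39.4% of Acaa1a reads in cold 7, 12 and 16, against 32.1%, 27.5% and 25.2% in ctrl 5, 6 and 10. Cold 16 was the highest mouse for both. Acadsb-207 took 39.1%, 45.0% and 32.8% of Acadsb reads in cold 7, 12 and 16, against 33.3%, 36.3% and 35.6% in ctrl 5, 6 and 10, and here cold 16 was the lowest. Echs1-205 took 12.3%, 11.3% and 19.4% of Echs1 reads in cold 7, 12 and 16, against 13.6%, 14.5% and 15.4% in ctrl 5, 6 and 10. The processed transcript Hadha-201 took 29.2%, 22.3% and 32.9% of Hadha reads in cold 7, 12 and 16, against 25.7%, 23.6% and 21.7% in ctrl 5, 6 and 10. All 5 overlapped between groups.

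Around the members, 7 lists of pathway genes with 87 tested genes gave 0 calls by edgeR, DESeq2 and limma-voom. Over all genes tested, edgeR called 0.553%. In the lists 9 genes had an unadjusted edgeR p under 0.05, 4 higher and 5 lower in cold, beside 8.48% of all genes tested. The lists hold 17 genes of fatty acid activation and carnitine supply, 18 regulators, 13 PPAR targets, 20 other peroxisomal lipid genes, 15 peroxisome assembly genes, 18 genes of branched-chain amino acid breakdown and 7 of ketone bodies. Some of these genes had too few reads for the test, among them the regulators Ppara and Ppargc1a. Of the genes tested, the closest to the threshold was Acsl1, the acyl-CoA synthetase that activates long-chain fatty acids in fat. It had 1426, 1869 and 1369 CPM in cold 7, 12 and 16, against 834, 1177 and 1112 CPM in ctrl 5, 6 and 10. The groups did not overlap (log2 fold change 0.60 ± 0.14 SE, edgeR adjusted p = 0.0601). Acacb, the carboxylase whose product malonyl-CoA inhibits Cpt1, had a log2 fold change of 0.60 ± 0.21 (SE; edgeR adjusted p = 0.315). The regulators nearest to a call were Esrra and Sirt5 (edgeR adjusted p of 0.773 and 0.812), and the PPAR targets Ucp3 and Vldlr (0.574 and 0.802). In the peroxisome, Gnpat, of ether lipid synthesis, had a log2 fold change of 0.41 ± 0.14 (SE; edgeR adjusted p = 0.332). The assembly factors Pex5 and Pex6 had adjusted p of 0.678 and 0.684. Pcca and Mccc2 of amino acid breakdown had 0.534 and 0.802, and Oxct1 and Acat2 of ketone body use had 0.519 and 0.929. Of the 10 markers of the adipocyte itself, all tested, 1 was called higher and 1 lower in cold. Pnpla2, the lipase that starts triglyceride breakdown, was the higher one, at 1912 ± 91.8 CPM in cold against 1243 ± 89.98 CPM in ctrl (SD, n = 3 each; edgeR adjusted p = 0.00425). Cfd, the secreted protease adipsin, was the lower one, at 10880 ± 760 CPM in cold against 15540 ± 914 CPM in ctrl (SD, n = 3 each; log2 fold change -0.49 ± 0.11 SE, edgeR adjusted p = 0.0419).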

How the data were processed

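For each of 6 mice the authors deposited 2 files of counts (X1 and X2), whole numbers of reads per transcript with no normalization. Reads were aligned with minimap2 to GRCm38, per the submitters' processing notes, from libraries of 100 ng poly-A RNA, per the labels' protocols. The counting tool, the handling of reads that match several transcripts, the use of strand and what separates X1 from X2 were not named in the sources at hand. Counts of both files of a mouse differed by about the sampling noise (chi-square per degree of freedom 1.02 to 1.06) and were summed, so n counts mice. Transcripts were matched to GENCODE M21 (61538 of 61729; the rest held 0.139% to 0.165% of reads) and summed to genes.

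The test for genes and for transcripts was that of edgeR 4.0.16 in R 4.3.3 (TMM, filterByExpr with a minimum count of 10, robust quasi-likelihood F test, Benjamini-Hochberg over all features, threshold 0.05). Usage was tested with diffSpliceDGE (Simes). Alternatives were RLE size factors within edgeR and the tests of DESeq2 1.42.0, limma-voom and diffSplice of limma 3.58.1. Further ones were other filters, X1 or X2 alone, protein_coding transcripts alone, and each mouse left out. The diffSplice test of limma was added after the data were seen. Tests were checked on simulated counts. Intervals of shares are 95% Clopper-Pearson and cover counting error only.

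Members and lists were chosen with earlier results of these data known. Values in every mouse are given for members with the 8 smallest p, all peroxisomal members, the 3 highest and 3 lowest by mean CPM, and any past a threshold. For transcripts they are given for the 6 smallest p, the 4 smallest usage p, members with at least 2 transcripts of at least 10% each among at least 60 reads, and Acaa2. For some forms of these members a range or a pooled share is given instead. From each pathway list the 2 genes with the smallest p are named. A gene that this rule takes is not reported here. Pnpla2, Etfb and the marker genes given with values were chosen after their values were seen.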

Additional observations from a re-analysis of the deposited data

How the results depend on the processing

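No paired analysis was possible because the cold and ctrl mice share no replicate numbers. The count of genes called was 54 (42 higher, 12 lower). It was 328 with no filter and 31 with X2 files alone, and 29 to 203 with 1 mouse left out. DESeq2 called 46 and limma-voom 39. Transcripts called were 43. They were 208 with no filter, 28 with X1 files alone, 26 with X2 files alone, and 14 to 147 with 1 mouse left out. Members called were 1, with Acot1 the gene in each case. They were 0 with the filter of 10 reads in at least 3 mice, with X1 files alone and with X2 files alone, where Acot1 was not tested, and 0 to 1 with 1 mouse left out. Member transcripts called were likewise 1, then 0 under these 3 settings and with DESeq2, and 0 to 1 with 1 mouse left out. No member but Acot1 was called under any of the 15 alternatives (lowest adjusted p 0.228), and no member transcript but Acot1-201 (lowest 0.0788).

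Genes called for transcript usage were 0. They were 1 with the gene-level F test and 1 with no filter, and 0 to 1 with 1 mouse left out; member genes stayed at 0 in each. The usage adjusted p of Acaa2 ranged from 0.279 to 1.00. The median log2 fold change of the peroxisomal members was -0.03 and was 0.11 with X1 files alone; the cause was not tested. That of the mitochondrial members ranged from -0.06 to 0.06 with 1 mouse left out. edgeR without robust estimation and the summing of Acot1 with Acot2, chosen after seeing the data, gave 64 genes called and, for the sum, an adjusted p of 0.748. The limma diffSplice test of usage was also chosen after seeing the data. With 1 read worth 0.747 to 1.38 CPM, counting error limits Cpt1b, which was not tested, and among tested members Acot1, Acox3 and Ehhadh most.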
